A study of Mus musculus with 9 samples.

Results

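Aminoacyl-tRNA synthetases are the enzymes that load each tRNA with its amino acid. The genes described were the protein-coding genes of the count table whose symbol is a single letter followed by ars, with or without a closing 1, 2 or l, together with Eprs, Farsa and Farsb. This rule found 37 genes among 27370. Names that end in 2 mark the 17 enzymes of the mitochondrial matrix, and the other 20 are called cytosolic. All 37 passed the filter on low counts, and the lowest count of any of them in any library was 7.

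The study sequenced polyA RNA of sorted mouse stromal cells in 3 groups of 3 libraries. The 3 depleted RPF libraries hold red pulp fibroblasts of the spleen from mice given diphtheria toxin. The 3 steady-state RPF libraries hold the same cells from untreated mice, and the 3 FRC libraries hold fibroblastic reticular cells from lymph nodes of untreated mice. Mice of every group, also the untreated ones, were Wt1CreERT2 RosatdTomato CD64DTR animals aged 4 months. Wt1CreERT2 directs the tdTomato reporter to cells of the Wt1 lineage, and CD64DTR places the toxin receptor in CD64-expressing cells, a class that includes red pulp macrophages. RPF were sorted as CD45-depleted tdTomato+ cells and FRC as tdTomato- cells. Each library pooled 2 mice, and each group drew 45000 cells from 6 mice. With 12 mice in all, FRC and steady-state RPF came from shared animals, but the sources used here do not say which of their libraries did.

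Cells keep 2 sets of synthetases, both encoded in the nucleus. The cytosolic set charges tRNAs for the ribosomes that translate nuclear mRNAs, and part of it is held in a multi-synthetase complex on scaffold proteins. The mitochondrial set charges the tRNAs of the organelle's own genome, with no glutaminyl enzyme, because glutaminyl-tRNA is made there by amidation of glutamyl-tRNA. Gars and Kars each encode both a cytosolic and a mitochondrial form. Many cytosolic synthetase genes are known targets of the transcription factor ATF4, which is translated when the initiation factor eIF2 alpha is phosphorylated, for example when amino acids are short.

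Library totals ran from 25414645 counts in steady-state RPF replicate 3 to 43879806 in FRC replicate 3. Within a group, libraries correlated at 0.932 to 0.966 across genes on the log2(CPM + 1) scale, a description in which genes are not independent replicates. Steady-state RPF replicate 1 stood apart with 24 counts on chromosome Y genes and FRC replicate 1 with 69, against 2315 to 6124 in the other 7 libraries. The labelled cell types met their markers: Tcf21 was at 180.1, 273 and 186 CPM in depleted RPF, at 676, 657 and 813 CPM in steady-state RPF and at 3.82, 1.40 and 2.86 CPM in FRC. Ccl19, a chemokine of lymph node reticular cells, was at 12.9, 13.1 and 12.7 CPM in depleted RPF, at 26.4, 12.5 and 16.2 CPM in steady-state RPF and at 359, 454 and 455 CPM in FRC. Of the fibroblast markers, Pdpn was at 0.144, 0.0540 and 0.0223 CPM in depleted RPF, at 0.0639, 0.197 and 0.0331 CPM in steady-state RPF and at 78.4, 71.1 and 72.9 CPM in FRC. Dcn was at 15.9, 11.3 and 9.73 CPM in depleted RPF, at 30.2, 47.1 and 14.4 CPM in steady-state RPF and at 24183, 28713 and 27809 CPM in FRC, so both were low in RPF beside FRC. Levels are CPM, counts scaled to the library total, with TMM factors that correct for library composition. Log2 fold changes (log2FC) are from edgeR's quasi-likelihood test on all 9 libraries. The test gives no standard error (SE), so SE were derived as the absolute log2FC over the square root of its F statistic. Calls were made where the p, adjusted by Benjamini-Hochberg over 15103 tested genes, was under 0.05. In such bulk samples, a lower level may come from fewer cells of a type or from less RNA per cell, and these cannot be told apart.

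The question behind depleted against steady-state RPF is what loss of macrophages does to the fibroblasts around them. The depleted mice were given toxin and the others were untreated. The toxin itself, loss of macrophages and loss of other CD64-expressing cells therefore cannot be told apart here. Cytosolic synthetase mRNA was higher in depleted RPF for nearly the whole set, and mitochondrial synthetase mRNA showed no such common direction. Of the 20 cytosolic genes, edgeR called 18 higher and 0 lower, with a median log2FC of 1.18, which is 2.27-fold. DESeq2 and limma-voom each called 19 higher and 0 lower, and at an unadjusted p under 0.05 edgeR had 20 higher and 0 lower. In all 20, the lowest depleted library lay above the highest steady-state library. How many of all tested genes were separated in this way was not counted, here or for later counts of overlap. Of the 17 mitochondrial genes, 2 were called higher and 1 lower, with a median log2FC of -0.20. Across all tested genes, edgeR called 11.1% higher and 9.96% lower, and the median log2FC was -0.09. As a share of all counts, the 37 genes together made up 0.456%, 0.417% and 0.453% in the depleted libraries, against 0.253%, 0.243% and 0.258% in the steady-state RPF libraries.

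**Figure D1:**
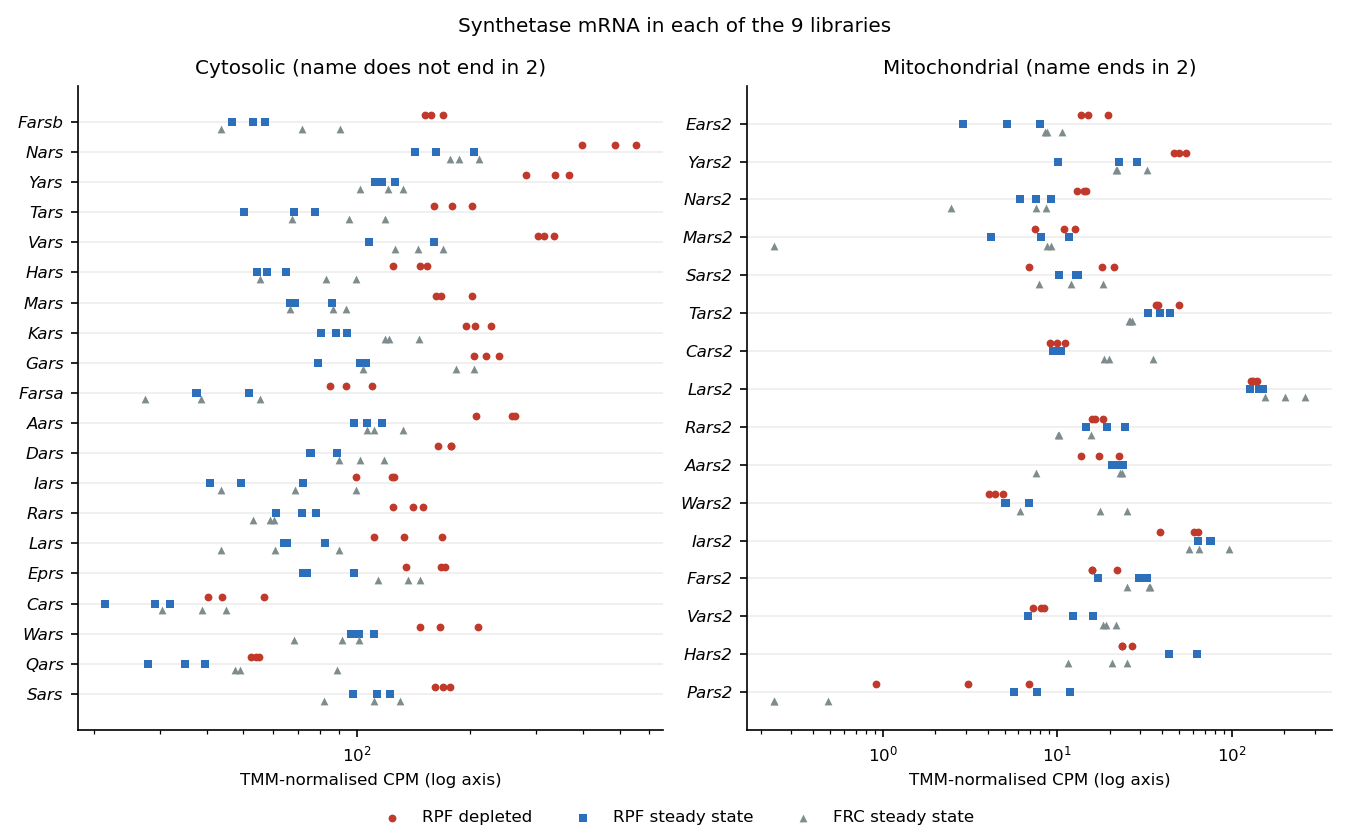
TMM-normalised CPM on a log axis for each synthetase gene in every library, with cytosolic genes on the left panel and mitochondrial genes on the right, ordered by their log2FC between depleted and steady-state RPF. The 3 depleted RPF libraries (circles) lie to the right of the 3 steady-state RPF libraries (squares) for all 20 cytosolic genes, while 12 of the 17 mitochondrial genes overlap. Triangles are the FRC libraries. Of the 17 mitochondrial genes, 1 is not drawn.

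Among cytosolic synthetases that work outside the multi-synthetase complex, 10 of 11 were called higher and 0 lower, with a median log2FC of 1.27. Farsb (ENSMUSG00000026245, chromosome 1, 78417975 to 78488897 of mm10) encodes the beta subunit of phenylalanyl-tRNA synthetase and had the largest log2FC of the cytosolic set. Its level was 152, 170.0 and 157 CPM in the depleted libraries, against 56.9, 46.6 and 53 CPM in steady-state RPF (log2FC 1.62, SE 0.24, edgeR adjusted p = 0.00159). Farsa encodes the alpha subunit of the same enzyme, which needs both. Depleted RPF had 93.7, 109.8 and 84.7 CPM of Farsa and steady-state RPF 37.7, 37.4 and 51.7 CPM (log2FC 1.18, SE 0.27, edgeR adjusted p = 0.0132). The subunit genes thus moved the same way, with no overlap between the groups in either.

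Nars is the asparaginyl enzyme. It had 554, 397 and 487 CPM in depleted libraries, against 205, 162 and 143 CPM in steady-state RPF libraries (log2FC 1.49, SE 0.17, edgeR adjusted p = 0.000438). For Yars (ENSMUSG00000028811), the tyrosyl enzyme on chromosome 4, 129189760 to 129219607, the depleted libraries were at 367, 282 and 336 CPM and the steady-state libraries at 117, 112 and 127 CPM (log2FC 1.47, SE 0.14, edgeR adjusted p = 0.000195). In Nars and Yars, every depleted library lay above every steady-state library. Tars, which charges threonine, had 202, 179 and 161 CPM after depletion, against 77.5, 50.1 and 68.3 CPM at steady state (log2FC 1.47, SE 0.24, edgeR adjusted p = 0.00237). Vars, the valyl enzyme, which binds the elongation factor complex eEF1, stood at 314, 303 and 335 CPM in depleted RPF and 108, 108 and 161 CPM in steady-state RPF (log2FC 1.34, SE 0.18, edgeR adjusted p = 0.00102). Steady-state replicate 3 was the high library of its group for Vars, and still lay well under all depleted libraries.

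Aars, the alanyl enzyme, had 208, 264 and 259 CPM in depleted libraries and 117, 98.4 and 107 CPM in steady-state libraries (log2FC 1.18, SE 0.14, edgeR adjusted p = 0.000569). Of its exonic bases, 14.3% are shared with Exosc6 on the same strand in the GENCODE annotation. Hars, the histidyl enzyme, was at 147, 154 and 125 CPM after depletion, against 54.3, 57.9 and 64.8 CPM at steady state (log2FC 1.27, SE 0.21, edgeR adjusted p = 0.00293). Smaller log2FC were seen for Wars and Sars, which charge tryptophan and serine. Wars, known as a gene induced by interferon gamma, had 211, 148 and 167 CPM in depleted RPF and 96.8, 111 and 101 CPM in steady-state RPF (log2FC 0.76, SE 0.18, edgeR adjusted p = 0.0182). Sars had 177, 169.5 and 162 CPM after depletion, against 114, 97.8 and 122 CPM at steady state, the smallest log2FC of the cytosolic genes (0.61, SE 0.17, edgeR adjusted p = 0.0368). Cars, the cysteinyl enzyme, had 43.8, 56.8 and 40.2 CPM in depleted and 29.1, 31.9 and 21.4 CPM in steady-state libraries. Its libraries did not overlap, but its log2FC of 0.77 (SE 0.24) stood at an edgeR adjusted p of 0.0502, just outside the threshold.

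In the 8 cytosolic genes of the multi-synthetase complex, Kars included, 7 were called higher and 0 lower, and the median log2FC was 1.05. Kars, which makes lysyl-tRNA in the complex and in mitochondria, had 206, 195 and 227 CPM in depleted libraries, against 80.4, 94.4 and 88.1 CPM in steady-state libraries (log2FC 1.26, SE 0.13, edgeR adjusted p = 0.000249). Mars, the methionyl enzyme that supplies the initiator tRNA too, had 202, 168 and 163 CPM after depletion and 86.1, 68.8 and 66.7 CPM at steady state (log2FC 1.27, SE 0.17, edgeR adjusted p = 0.00107). Dars charges aspartate. It was at 178, 165 and 178 CPM in depleted RPF, against 88.5, 75.8 and 75.2 CPM in steady-state RPF (log2FC 1.12, SE 0.14, edgeR adjusted p = 0.000523). Both Kars and Dars had tight groups, with the smallest SE of the complex genes.

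Iars and Lars, which charge isoleucine and leucine, were more variable. Iars had 124, 99.7 and 126 CPM in depleted and 71.9, 40.7 and 49.2 CPM in steady-state RPF (log2FC 1.11, SE 0.31, edgeR adjusted p = 0.0344). Lars had 134, 111 and 169 CPM after depletion, against 65.2, 64.3 and 82.6 CPM at steady state (log2FC 0.97, SE 0.27, edgeR adjusted p = 0.0332). The arginyl enzyme Rars had 150.3, 125 and 141 CPM in depleted RPF and 78, 61.1 and 71.5 CPM in steady-state RPF (log2FC 0.98, SE 0.14, edgeR adjusted p = 0.00132). Eprs is a fused enzyme that charges both glutamate and proline. Its levels were 168, 171 and 135 CPM in depleted libraries, against 98.2, 72 and 74 CPM in steady-state libraries (log2FC 0.96, SE 0.17, edgeR adjusted p = 0.00416). Qars, the glutaminyl enzyme, was the complex gene that did not pass, with 55.1, 54.1 and 52.4 CPM in depleted and 39.4, 27.9 and 35 CPM in steady-state RPF (log2FC 0.66, SE 0.26, edgeR adjusted p = 0.114). Its libraries did not overlap.

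Gars, the glycyl enzyme with both a cytosolic and a mitochondrial form, had 205, 221 and 239 CPM in depleted RPF, against 102, 106 and 78.8 CPM in steady-state RPF (log2FC 1.21, SE 0.24, edgeR adjusted p = 0.00719). Without Gars and Kars, which serve both compartments, 16 of 18 cytosolic genes were called higher. When each library was left out in turn, between 14 and 19 cytosolic genes were called higher, and 16 were called without both libraries poor in chromosome Y reads.

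**Figure D2:**
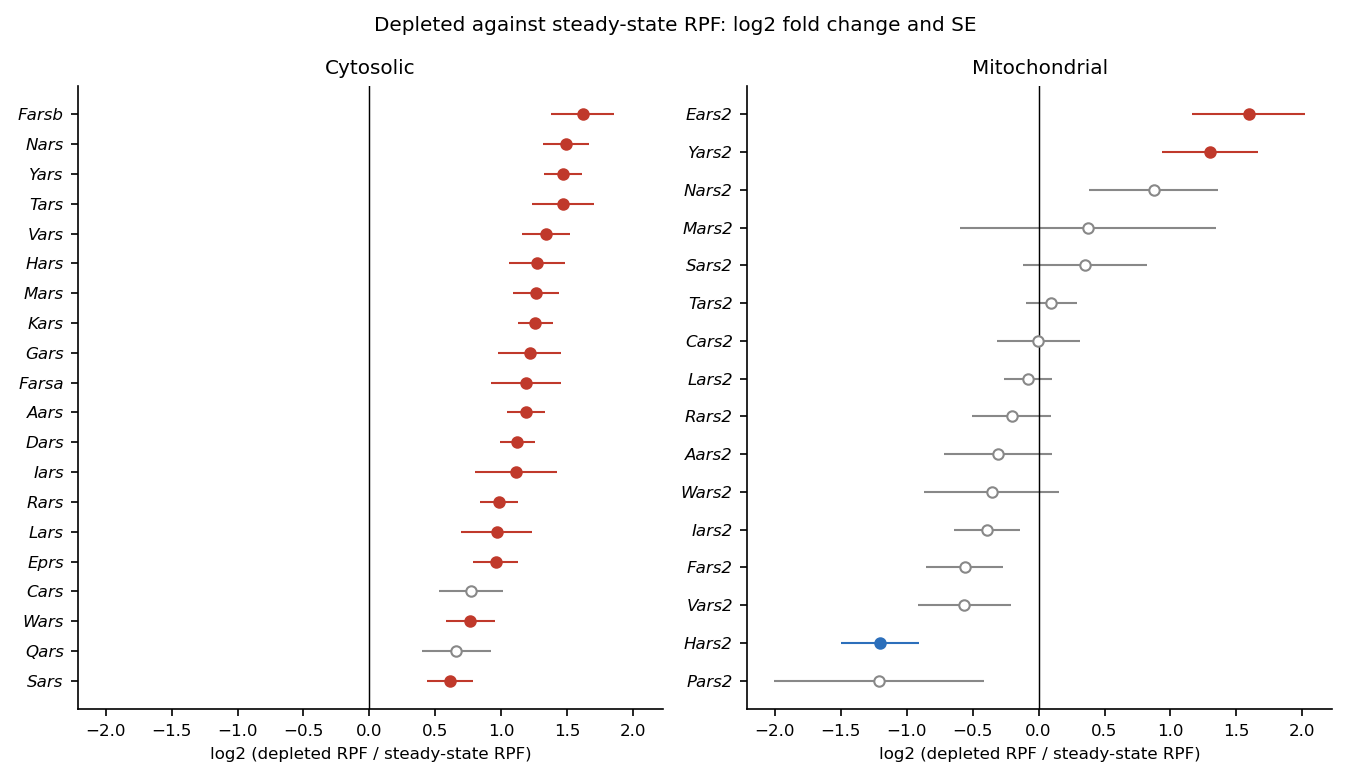
Log2 fold change of depleted over steady-state RPF with its SE for each gene, from edgeR (n = 3 libraries a group). Filled points passed an adjusted p under 0.05 (red higher, blue lower), and open points did not. All 20 cytosolic genes lie right of 0, from 0.61 to 1.62, and the mitochondrial genes, of which 1 is not drawn, lie on both sides.

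Promoter sequences were looked up in RefSeq for GRCm38.p6, from 250 bases before to 50 bases after the start of transcription, and 27 of the 37 genes matched. The core letters of the C/EBP-ATF response element, TGATGNAA on either strand, occurred in 5 of 13 cytosolic promoters (38.5%) and in 0 of 14 mitochondrial promoters. The same letters occurred in 736 of 20996 protein-coding promoters (3.51%) and in 9 of 27 promoters of a list of ATF4 amino acid response genes (33.3%). The 5 genes were Tars, Yars, Gars, Aars with 2 matches, and Iars. As a comparison, the core of the NRF1 motif, GCGCANGCG, occurred in 3 of 13 cytosolic (23.1%), 4 of 14 mitochondrial (28.6%) and 8.65% of protein-coding promoters. The letters GAAANNGAA of the interferon-stimulated response element occurred in 1 cytosolic promoter, that of Qars, and in 8.10% of protein-coding promoters. Matches of different motifs did not overlap in these windows. Cytosolic genes with and without the ATF letters had median log2FC of 1.21 (n = 5) and 1.15 (n = 8) between depleted and steady-state RPF. The log2FC of the genes without the letters ran from 0.61 to 1.62 and took in the whole range of those with them, 1.11 to 1.47. A match of letters is a description of the sequence and not a bound site.

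The 4 promoters below are shown because their genes had the smallest edgeR adjusted p between depleted and steady-state RPF of the 5 that hold the ATF letters, all called higher. The letters are in capitals. They run 5′ to 3′ on the strand of the gene: Yars at chr4:129189653-129189952, plus strand, Aars at chr8:111033592-111033891, plus strand, Tars at chr15:11399609-11399908, minus strand, and Gars at chr6:55037751-55038050, plus strand. The match begins at position 4 from the start of transcription in Yars, at -112 and 10 in Aars, at -15 in Tars and at -30 in Gars.
Yars: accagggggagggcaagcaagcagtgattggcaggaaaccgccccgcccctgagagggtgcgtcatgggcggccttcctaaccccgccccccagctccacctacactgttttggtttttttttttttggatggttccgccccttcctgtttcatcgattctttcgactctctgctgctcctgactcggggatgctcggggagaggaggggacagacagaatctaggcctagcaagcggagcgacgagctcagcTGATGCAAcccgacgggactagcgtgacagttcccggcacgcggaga
Aars: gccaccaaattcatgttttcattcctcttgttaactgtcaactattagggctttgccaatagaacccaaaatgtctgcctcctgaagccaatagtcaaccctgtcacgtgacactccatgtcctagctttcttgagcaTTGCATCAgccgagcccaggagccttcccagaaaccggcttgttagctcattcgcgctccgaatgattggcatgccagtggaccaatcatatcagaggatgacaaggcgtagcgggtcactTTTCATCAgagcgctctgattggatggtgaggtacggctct
Tars: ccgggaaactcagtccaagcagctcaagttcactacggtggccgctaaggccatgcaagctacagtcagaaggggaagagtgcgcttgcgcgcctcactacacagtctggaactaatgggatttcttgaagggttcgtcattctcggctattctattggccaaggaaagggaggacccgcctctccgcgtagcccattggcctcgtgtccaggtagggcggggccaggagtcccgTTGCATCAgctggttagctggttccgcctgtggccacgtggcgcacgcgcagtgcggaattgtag
Gars: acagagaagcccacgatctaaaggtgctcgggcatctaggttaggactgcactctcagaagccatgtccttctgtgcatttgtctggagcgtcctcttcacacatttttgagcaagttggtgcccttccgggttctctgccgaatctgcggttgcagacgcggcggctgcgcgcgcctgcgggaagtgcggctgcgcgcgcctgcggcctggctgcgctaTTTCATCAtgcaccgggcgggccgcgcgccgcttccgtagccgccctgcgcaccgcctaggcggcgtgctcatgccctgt

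Among mitochondrial synthetases, 12 of 17 had overlapping depleted and steady-state RPF libraries. Ears2 (ENSMUSG00000030871, chromosome 7, 122037213 to 122067263), which charges glutamate in mitochondria, was called higher with 13.7, 15.1 and 19.4 CPM in depleted RPF, against 7.96, 2.88 and 5.13 CPM in steady-state RPF (log2FC 1.59, SE 0.43, edgeR adjusted p = 0.0287). Its counts were low, with 477, 558 and 871 reads in the depleted libraries and 374, 146 and 155 in the steady-state libraries. Yars2, the mitochondrial tyrosyl enzyme, had 49.9, 54.9 and 46.5 CPM after depletion and 10.1, 28.6 and 22.7 CPM at steady state (log2FC 1.30, SE 0.36, edgeR adjusted p = 0.0332). Its steady-state group was wide, replicate 1 being the low library. Both calls depended on single libraries: with 1 library left out in turn, edgeR called between 0 and 2 mitochondrial genes higher, and 0 without any 1 of the 3 depleted libraries or without steady-state RPF replicate 3.

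Hars2, the mitochondrial histidyl enzyme, was the member called lower. It had 26.7, 23.5 and 23.6 CPM in depleted RPF, against 43.6, 63.2 and 63.2 CPM in steady-state RPF (log2FC -1.20, SE 0.30, edgeR adjusted p = 0.0197). The groups did not overlap, but the call was lost without any 1 of the 3 depleted libraries and without steady-state RPF replicate 2 or 3, at edgeR adjusted p values of up to 0.0714. Hars2 lies head to head with Hars on chromosome 18 of mm10, Hars from 36766530 to 36783205 on the minus strand and Hars2 from 36783008 to 36792562 on the plus strand. They share 195 exonic bases, and the sources used here do not say whether the counting used strand. These neighbours moved in opposite directions after depletion, Hars with a log2FC of 1.27 and Hars2 with -1.20.

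The other 14 mitochondrial genes were not called in this comparison, nor under any of the 18 other settings tried. Their log2FC ran from -1.21 for Pars2 to 0.87 for Nars2, with SE from 0.18 for Lars2 to 0.97 for Mars2. Nars2, the asparaginyl enzyme, had 14.6, 14.3 and 12.9 CPM in depleted RPF, against 6.09, 7.52 and 9.23 CPM in steady-state RPF (edgeR adjusted p = 0.256), and its libraries did not overlap. Wars2, the tryptophanyl enzyme, did not overlap either, with 4.05, 4.88 and 4.40 CPM in depleted and 5.02, 6.93 and 5.09 CPM in steady-state RPF (edgeR adjusted p = 0.697). For Lars2, the leucyl enzyme, the depleted libraries had 132, 128 and 139 CPM and the steady-state libraries 128, 151 and 143 CPM (log2FC -0.08, SE 0.18). Its SE was the smallest of the mitochondrial set, and its groups overlapped.

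Several of these genes charge amino acids whose cytosolic enzymes were called higher in depleted RPF. Tars2 had 37, 37.6 and 49.7 CPM in depleted RPF, against 44.4, 33.1 and 38.8 CPM in steady-state RPF, while Tars was called higher. Iars2, the isoleucyl enzyme, had 60.9, 38.9 and 64.4 CPM in depleted libraries and 75.2, 64.4 and 75.6 CPM in steady-state libraries, and shares 22.9% of its exonic bases with Rab3gap2. In both genes the groups overlapped. Fars2, the single-chain phenylalanyl enzyme of mitochondria, had 15.9, 15.8 and 22 CPM in depleted RPF, against 17.1, 32.6 and 29.4 CPM in steady-state RPF. Vars2, the valyl enzyme, had 8.41, 8.04 and 7.30 CPM after depletion and 6.79, 12.3 and 16 CPM at steady state. Aars2, the alanyl enzyme, had 22.6, 13.7 and 17.2 CPM in depleted RPF and 20.6, 21.8 and 23.8 CPM in steady-state RPF. These 3 also overlapped between the groups, with negative log2FC of -0.56, -0.56 and -0.31.

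Rars2, the arginyl enzyme, was at 18.2, 15.9 and 16.4 CPM in depleted RPF and 14.5, 19.3 and 24.3 CPM in steady-state RPF. Cars2, the cysteinyl enzyme, was at 9.97, 9.15 and 11 CPM after depletion, against 10.5, 10.2 and 9.49 CPM at steady state. The log2FC of Rars2 was -0.20 (SE 0.30), and that of Cars2 was -0.00091 (SE 0.31). Sars2, the seryl enzyme, had 6.89, 21.3 and 18 CPM in depleted and 13.1, 12.8 and 10.3 CPM in steady-state RPF, with depleted replicate 1 the low library. Mars2, the methionyl enzyme, had 12.6, 7.50 and 10.9 CPM in depleted and 4.15, 8.06 and 11.6 CPM in steady-state RPF. Pars2, the prolyl enzyme, had 3.10, 6.85 and 0.915 CPM in depleted and 5.64, 7.64 and 11.8 CPM in steady-state RPF. For Mars2 and Pars2 the SE were 0.97 and 0.80, large beside the cytosolic median of 1.18. All 5 of these genes overlapped between the groups.

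To set enzymes of 1 amino acid side by side, the log2 ratio of the mitochondrial over the cytosolic gene was taken in each library from CPM per kb of the median transcript length that the deposited table lists. There are 17 such pairs. Ears2 and Pars2 are both set against Eprs, and Fars2 against the sum of Farsa and Farsb. The ratio was lower in depleted than in steady-state RPF for 16 pairs and higher for 1, with a median difference of -1.16 (log2). Hars2 over Hars had log2 ratios of -1.19, -1.43 and -1.13 in depleted RPF, against 0.96, 1.40 and 1.24 in steady-state RPF. The cytosolic gene was the higher one per kb in every depleted library, and the mitochondrial gene in every steady-state library. The order at steady state turns on the length used. With the exonic length of GENCODE, a choice made after seeing the data, the ratios were -3.27, -3.52 and -3.21 in depleted RPF and -1.12, -0.68 and -0.84 in steady-state RPF, so the cytosolic gene was the higher one in all 6 libraries. The difference between the groups does not depend on length. Yars2 over Yars had -3.87, -3.35 and -3.84 in depleted RPF and -4.52, -2.96 and -3.47 in steady-state RPF, a difference of -0.04, and both genes were called higher. Ears2 over Eprs was the pair with a higher ratio, at -3.70, -3.60 and -2.89 in depleted RPF and -3.71, -4.73 and -3.94 in steady-state RPF.

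Summed over the class, cytosolic synthetase mRNA was 3301, 3080.4 and 3240.2 CPM per kb in the depleted libraries, against 1463, 1283 and 1412 CPM per kb in steady-state RPF. The mitochondrial sum was 334, 325 and 363 CPM per kb in depleted RPF and 331, 403 and 421 CPM per kb in steady-state RPF. The cytosolic sums did not overlap and the mitochondrial sums did. Mitochondrial synthetases made up 9.19 to 10.1% of the summed CPM per kb in depleted RPF, against 18.5 to 23.9% in steady-state RPF and 16.8 to 19.6% in FRC. The log2 ratio of mitochondrial over cytosolic sums was -3.31, -3.25 and -3.16 in depleted RPF and -2.14, -1.67 and -1.74 in steady-state RPF, a difference of -1.39. No test was made on these sums, since the genes in them are not replicates.

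**Figure D3:**
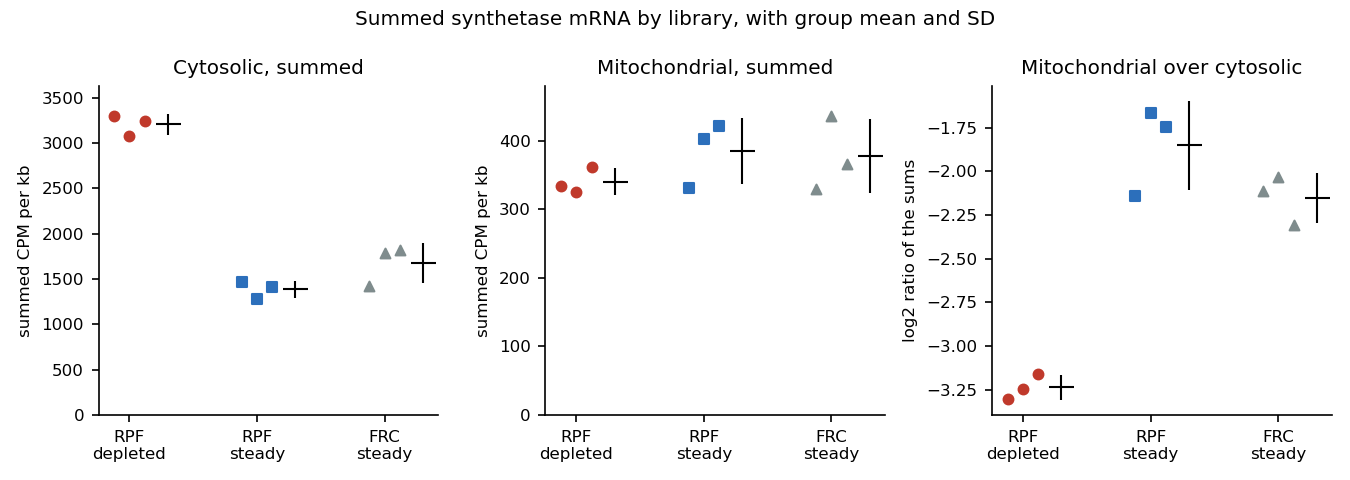
Summed CPM per kb of the 20 cytosolic genes (left) and of the 17 mitochondrial genes (middle), and the log2 ratio of mitochondrial over cytosolic sums (right), for each library, with the mean and SD of 3 libraries beside the points. The cytosolic sum of all 3 depleted RPF libraries lies above that of the other 6 libraries, and their log2 ratio lies below.

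Measured per kb, the order of the levels was led by Yars and Vars in depleted RPF, at 443 ± 58.4 and 425 ± 21.3 CPM per kb (SD, n = 3), which do not differ beyond their spread. In steady-state RPF, Vars and Yars led as well, at 168 ± 40.8 and 160.1 ± 9.90 CPM per kb. The lowest cytosolic gene was Lars in both groups, at 35.8 ± 7.57 CPM per kb in depleted RPF and 18.3 ± 2.68 CPM per kb in steady-state RPF. Of the mitochondrial genes, Lars2 was highest at 83.5 ± 3.50 CPM per kb in depleted RPF, against 88 ± 7.47 CPM per kb in steady-state RPF. Hars2 was second to it at steady state, with 69.2 ± 13.8 CPM per kb, and had 30.1 ± 2.19 CPM per kb after depletion. The transcript lengths in the table vary widely between genes, from 526 bases for Rars2 to 11294 bases for Mars2, which limits comparisons between genes. The order turns on this scaling. In CPM without it, Nars was the highest and Cars the lowest cytosolic gene, with means of 479 and 46.9 CPM in depleted RPF. Their means in steady-state RPF were 170 and 27.5 CPM, again the highest and lowest.

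Other genes of the same pathway were counted from lists. The scaffold of the multi-synthetase complex consists of Aimp1, Aimp2 and Eef1e1, and all 3 were called higher, with a median log2FC of 1.18. Eef1e1 had 73, 53.1 and 71.4 CPM in depleted RPF, against 13.9, 14.7 and 12.2 CPM in steady-state RPF (log2FC 2.28, edgeR adjusted p = 0.000620). Aimp1 and Aimp2 had log2FC of 1.13 and 1.18, at edgeR adjusted p values of 0.0127 and 0.00785. The factors that use charged tRNAs on cytosolic ribosomes moved the same way, with 6 of 6 elongation genes called higher and a median log2FC of 1.41. Among them, Eef1a1, which brings charged tRNA to the ribosome, had a log2FC of 1.22 (edgeR adjusted p = 8.25e-05), and Eif5a, which helps the ribosome past difficult residues, had 2.21 (edgeR adjusted p = 8.47e-06).

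For the organelle, edgeR called 2 of 9 mitochondrial translation factors higher and 0 lower, with a median log2FC of 0.19. The count lower was 1 at an unadjusted p under 0.05, 1 by DESeq2 and 0 by limma-voom. The genes called higher were Tufm, the mitochondrial elongation factor Tu, with a log2FC of 0.92 (edgeR adjusted p = 0.0487), and Gfm1, the mitochondrial elongation factor G, with 1.07 (edgeR adjusted p = 0.0109). None of the 4 genes for mitochondrial tRNA amidation and formylation was called in either direction by edgeR. Their count was also 0 at an unadjusted p under 0.05, by DESeq2 and by limma-voom. Of 15 tRNA maturation genes, 6 were called higher and 0 lower, with a median log2FC of 0.67. Nsun2, which methylates cytosine in tRNA, led these by p, with 271, 265 and 238 CPM in depleted RPF, against 79.7, 77.3 and 61.8 CPM in steady-state RPF (log2FC 1.82, edgeR adjusted p = 0.000121). Trmt61a, a catalytic subunit of a tRNA adenine methyltransferase, had a log2FC of 2.43, and the pseudouridine synthase Pus1 had 1.81 (edgeR adjusted p = 0.000617 and 0.00210). Elac2, which trims the 3′ end of tRNA precursors, had 1.19 (edgeR adjusted p = 0.00302). Of 5 synthetase-like or editing genes outside the naming rule, Prorsd1 was called lower (log2FC -0.95, edgeR adjusted p = 0.0444) and 0 were called higher.

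Of 30 tested genes of the ATF4 amino acid response, edgeR called 15 higher and 0 lower, with a median log2FC of 1.13. The count lower was 0 at an unadjusted p under 0.05 and 1 each by DESeq2 and limma-voom. Atf4 itself had 437, 448 and 444 CPM in depleted RPF, against 138, 151 and 179 CPM in steady-state RPF (log2FC 1.51, edgeR adjusted p = 6.25e-05). Its groups were tight and far apart. Asns, the asparagine synthetase that is a standard ATF4 target, had 181, 146 and 119 CPM after depletion and 34, 39.2 and 40.6 CPM at steady state (log2FC 1.97, edgeR adjusted p = 0.00104). The amino acid transporters Slc7a1 and Slc1a5 had log2FC of 2.80 and 1.53 (edgeR adjusted p = 0.000189 and 0.000455). Cebpb, a transcription factor that pairs with ATF4, had a log2FC of 2.07 (edgeR adjusted p = 0.000152). Other textbook members did not pass, among them Ddit3 (0.39, adjusted p = 0.457), Trib3 (0.19, adjusted p = 0.971) and Sesn2 (0.03, adjusted p = 0.961), named after their values were seen. None of the 4 genes for eIF2 alpha kinases was called by edgeR, DESeq2 or limma-voom, and 0 had an unadjusted p under 0.05 in edgeR. The synthetases and this list were measured in the same libraries, and a link between them was not tested.

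**Figure D4:**
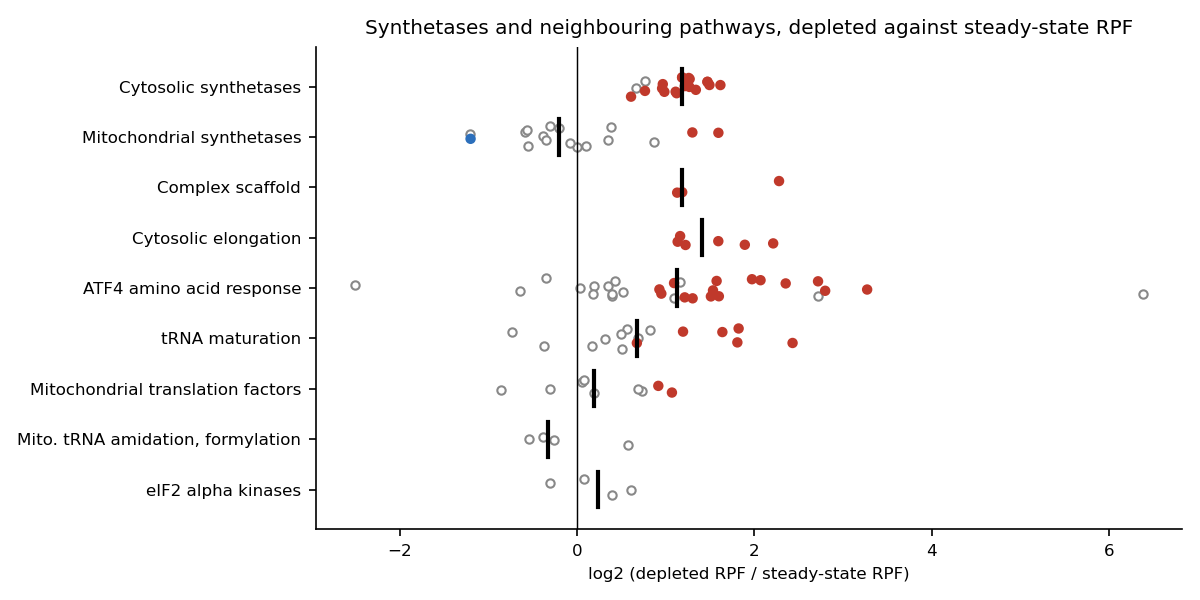
Log2 fold change of depleted over steady-state RPF for each tested gene of the synthetase classes and neighbouring lists, with the list median as a black bar. Filled points passed an edgeR adjusted p under 0.05 (red higher, blue lower). Cytosolic synthetases, the complex scaffold, elongation factors and ATF4 genes have medians between 1.13 and 1.41, and mitochondrial synthetases one of -0.20.

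Markers of fibroblasts and of other cells differed between these groups as well. Of 8 fibroblast markers, 1 was called higher and 4 lower, with a median log2FC of -0.59. Of 6 markers of RPF or FRC, 0 were called higher and 1 lower, with a median log2FC of -0.67. C1qb, a macrophage gene, was at 0.0287, 1.24 and 0 CPM in depleted RPF, against 57.9, 46.8 and 40.6 CPM in steady-state RPF, and Adgre1, Cd5l, Fcgr1 and C1qa had 0 counts in all depleted libraries. Of 11 tested macrophage markers, 7 were called lower and 0 higher. The summed level of the 12 listed in the table ran from 1564 to 1647 CPM in depleted RPF and from 1502 to 1748 CPM in steady-state RPF, and stems mostly from genes that are not specific to macrophages, such as Axl at 1529, 1484 and 1473 CPM in depleted RPF and 1406, 1211 and 1377 CPM in steady-state RPF. Leukocyte markers summed to 2.45 to 25.2 CPM in depleted RPF, against 21.7 to 192 CPM in steady-state RPF. Endothelial markers summed to 19.8 to 30.9 CPM in depleted RPF, against 47.2 to 153 CPM in steady-state RPF, and erythroid markers to 286 to 466 CPM in depleted RPF, against 124 to 558 CPM in steady-state RPF. The part of these other cells, and of the shift in fibroblast markers, in the synthetase results was not tested.

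Comparing steady-state RPF with FRC asks how fibroblasts of the red pulp and of lymph nodes differ. Of 37 synthetases, 2 were called higher and 5 lower, beside 11.5% higher and 14.4% lower among all tested genes. The share called lower was thus close to that of all tested genes. The cytosolic median log2FC was -0.30 (0 called higher and 4 lower by edgeR, DESeq2 and limma-voom alike), the mitochondrial median was -0.02 (2 higher, 1 lower), and that of all tested genes was -0.02. Steady-state RPF libraries serve in both comparisons, so the values of this one are not independent of those above. The tissue and the sort gate cannot be told apart from the cell type here. Markers of fibroblasts and of other cells differed here too. Of 8 fibroblast markers, 1 was called higher and 7 lower in steady-state RPF, with a median log2FC of -2.08. They summed to 6616 to 7697 CPM in steady-state RPF, against 49994 to 53453 CPM in FRC. Of 11 tested macrophage markers, 5 were called higher and 1 lower in steady-state RPF, and the 12 in the table summed to 1502 to 1748 CPM in steady-state RPF, against 968 to 1155 CPM in FRC. Of 5 erythroid markers, 2 were called higher and 0 lower, with sums of 124 to 558 CPM in steady-state RPF, against 0.418 to 70.9 CPM in FRC. Of 5 tested leukocyte markers, 1 was called higher and 0 lower, and the 7 in the table summed to 21.7 to 192 CPM in steady-state RPF, against 2.01 to 14.4 CPM in FRC. Of 5 endothelial markers, 1 was called higher and 0 lower, with sums of 47.2 to 153 CPM in steady-state RPF, against 49.3 to 64.2 CPM in FRC. Their part in these results was not tested either.

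All 4 cytosolic genes called lower in RPF belong to the complex or serve both compartments. The complex, Kars included, holds 8 of the 20 cytosolic genes, and Gars serves both compartments. Of the other 11 cytosolic genes, 0 were called, with a median log2FC of -0.17. The median was -0.37 for the 7 complex genes without Kars and -0.67 for the 2 that serve both compartments. Whether these groups differ was not tested. The calls of Qars and Gars were each lost in 11 of 18 other settings. Kars had 80.4, 94.4 and 88.1 CPM in steady-state RPF, against 122, 119 and 147 CPM in FRC (log2FC -0.56, SE 0.13, edgeR adjusted p = 0.0118). Eprs had 98.2, 72 and 74 CPM in steady-state RPF and 137, 114 and 147 CPM in FRC (log2FC -0.71, SE 0.17, edgeR adjusted p = 0.0152). In both genes every RPF library lay below every FRC library. Qars had 39.4, 27.9 and 35 CPM in RPF, against 47.5, 88.7 and 49 CPM in FRC, with FRC replicate 2 far above the others (log2FC -0.86, SE 0.26, edgeR adjusted p = 0.0406). Gars had 102, 106 and 78.8 CPM in RPF and 104, 183 and 205 CPM in FRC, and its groups overlapped at FRC replicate 1 (log2FC -0.78, SE 0.24, edgeR adjusted p = 0.0409). The count of lower synthetases depended on single libraries: it was 10 without FRC replicate 1, 1 without any 1 of the 3 steady-state RPF libraries, and 3 without FRC replicate 2 or 3 or any depleted library. It was 9 without both libraries poor in chromosome Y reads.

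The mitochondrial enzymes held the largest differences. Pars2 (ENSMUSG00000043572, chromosome 4, 106651069 to 106655282) had 5.64, 7.64 and 11.8 CPM in steady-state RPF, against 0.486, 0.239 and 0.239 CPM in FRC (log2FC 4.69, SE 0.92, edgeR adjusted p = 0.00560). FRC had 16, 7 and 8 reads of this gene per library, so the size of the fold rests on few reads. Hars2 had 43.6, 63.2 and 63.2 CPM in RPF and 25.1, 20.7 and 11.6 CPM in FRC (log2FC 1.57, SE 0.30, edgeR adjusted p = 0.00474). Its neighbour Hars had 54.3, 57.9 and 64.8 CPM in RPF, against 55.3, 99.5 and 82.8 CPM in FRC, and was not called (log2FC -0.42, edgeR adjusted p = 0.178). Both Pars2 and Hars2 had RPF libraries wholly above the FRC libraries, and both calls were made under each of the 18 other settings. Cars2 had 10.5, 10.2 and 9.49 CPM in RPF, against 18.5, 19.9 and 35.6 CPM in FRC (log2FC -1.29, SE 0.32, edgeR adjusted p = 0.0163). Its paralog Cars had 29.1, 31.9 and 21.4 CPM in RPF and 30.4, 38.9 and 44.9 CPM in FRC, where the groups overlapped (edgeR adjusted p = 0.191). The call of Cars2 was lost without any 1 of the 3 steady-state RPF libraries or without FRC replicate 3, at adjusted p of up to 0.0618. Wars2 had the lowest log2FC of the mitochondrial genes, -1.52, and was not called. It had 5.02, 6.93 and 5.09 CPM in RPF, against 17.7, 25.1 and 6.11 CPM in FRC, and its groups overlapped at FRC replicate 3.

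**Figure D5:**
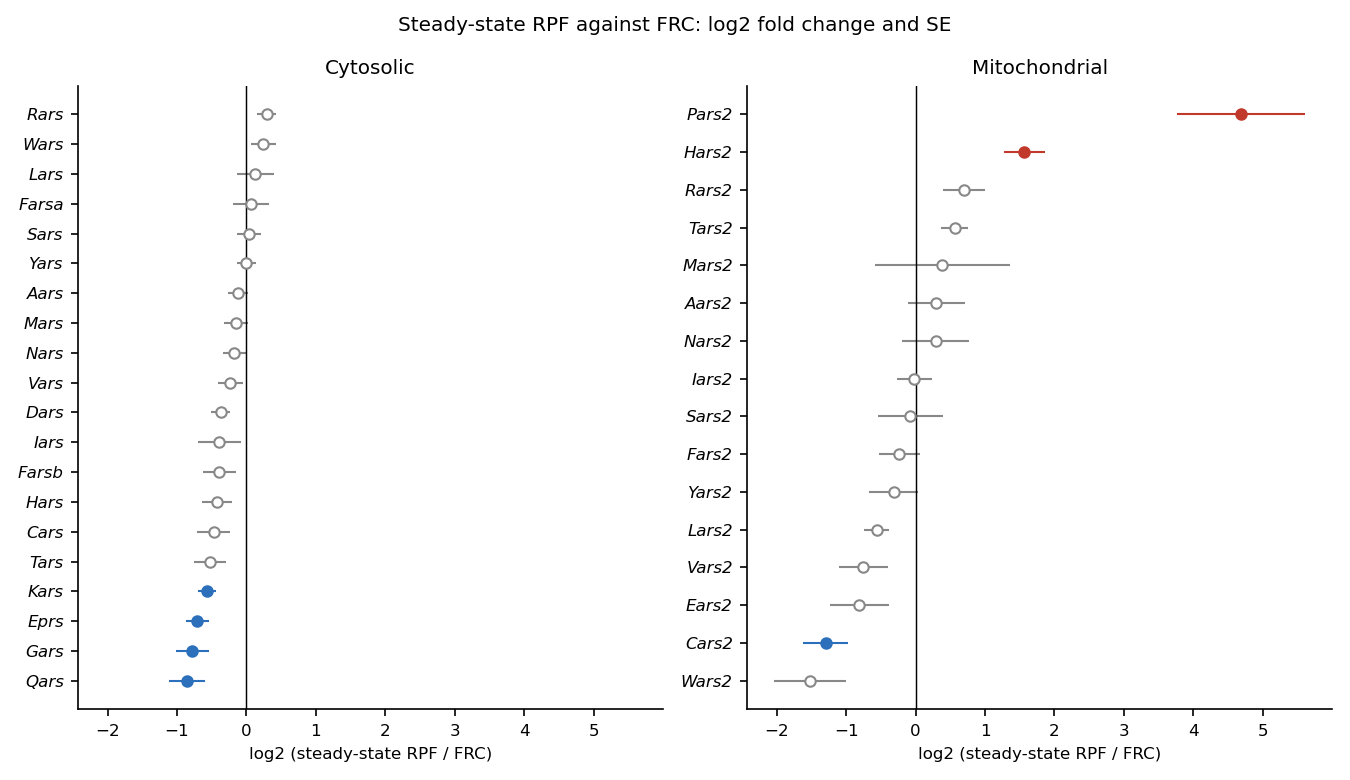
Log2 fold change of steady-state RPF over FRC with its SE for each gene, from edgeR (n = 3 libraries a group). Filled points passed an adjusted p under 0.05. The cytosolic genes lie between -0.86 and 0.29, and Pars2 at 4.69 lies apart from the other mitochondrial genes, of which 1 is not drawn.

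The pathway lists were counted here too. Of 30 ATF4 response genes, 4 were called higher and 16 lower in steady-state RPF, with a median log2FC of -1.17. Atf4 had 138, 151 and 179 CPM in steady-state RPF, against 692, 716 and 750.2 CPM in FRC (log2FC -2.21, edgeR adjusted p = 3.04e-06), and Asns had 34, 39.2 and 40.6 CPM in RPF and 121, 82.6 and 58.8 CPM in FRC (log2FC -1.21, edgeR adjusted p = 0.00945). All 6 elongation genes were called lower, with a median log2FC of -0.80, while the 3 scaffold genes were not called by edgeR, DESeq2 or limma-voom (median 0.02, and 0 with an unadjusted edgeR p under 0.05). For FRC, the cytosolic synthetase sum was 1427, 1789.6 and 1818 CPM per kb, under every depleted RPF library. A link between Atf4 mRNA and this sum was not tested.

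Depleted RPF against FRC uses the same libraries as the comparisons above. Toxin treatment, tissue and sort gate cannot be told apart from cell type in it. The edgeR test called 17 of 37 synthetases higher and 4 lower, against 16.9% and 18.8% of all tested genes. The cytosolic genes accounted for 15 of those higher and 0 of those lower, with a median log2FC of 0.98, and in 16 the libraries did not overlap. The cytosolic genes not called were Cars, Eprs, Gars, Iars and Qars, with log2FC from -0.20 to 0.72. Of these, Eprs had 168, 171 and 135 CPM in depleted RPF and 137, 114 and 147 CPM in FRC, which overlap. Yars stood furthest apart among cytosolic genes, with 367, 282 and 336 CPM in depleted RPF, against 133, 102 and 121 CPM in FRC (log2FC 1.47, SE 0.14, edgeR adjusted p = 7.57e-05). Of the mitochondrial genes, Pars2 and Tars2 were called higher and Cars2, Lars2, Vars2 and Wars2 lower, with a median log2FC of 0.28 over the 17. These counts depended on single libraries: 1 mitochondrial gene was called lower without depleted replicate 2 or 3, and 2 without depleted replicate 1 or FRC replicate 2. In turn, 1 was called higher without depleted replicate 2 or 3 or without any 1 of the 3 FRC libraries. Tars2 had 37, 37.6 and 49.7 CPM in depleted RPF, against 25.8, 26.9 and 26 CPM in FRC, where it was tight (log2FC 0.66, edgeR adjusted p = 0.0276). Vars2 had 8.41, 8.04 and 7.30 CPM in depleted RPF and 18.2, 21.8 and 19 CPM in FRC, with no overlap (log2FC -1.31, edgeR adjusted p = 0.0188). The log2 ratio of mitochondrial over cytosolic sums was -3.31, -3.25 and -3.16 in depleted RPF, against -2.11, -2.04 and -2.31 in FRC, a difference of -1.08. Of 30 tested ATF4 response genes, 10 were called higher and 9 lower in depleted RPF, with a median log2FC of -0.33. This list thus did not share the direction of the cytosolic synthetases here. Of 6 elongation genes, 4 were called higher and 0 lower, and all 3 scaffold genes were called higher. A link between these lists and the synthetases was not tested. Of 8 fibroblast markers, 1 was called higher and 7 lower in depleted RPF, with a median log2FC of -2.88. They summed to 5708 to 6320 CPM in depleted RPF, against 49994 to 53453 CPM in FRC. Of the erythroid markers, 2 of 5 were called higher and 0 lower, with sums of 286 to 466 CPM in depleted RPF, against 0.418 to 70.9 CPM in FRC. Of 11 tested macrophage markers, 2 were called higher and 5 lower, and the 12 in the table summed to 1564 to 1647 CPM in depleted RPF, against 968 to 1155 CPM in FRC. Leukocyte markers (1 of 5 tested called higher, 0 lower) summed to 2.45 to 25.2 CPM in depleted RPF and 2.01 to 14.4 CPM in FRC. Endothelial markers (1 of 5 higher, 1 lower) summed to 19.8 to 30.9 CPM in depleted RPF and 49.3 to 64.2 CPM in FRC. The part of these cells, and of the difference in fibroblast markers, in the results was not tested.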

How the data were processed

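RNA-seq was made of sorted red pulp fibroblasts after macrophage depletion and at steady state, and of lymph node reticular cells. The values the authors deposited are raw counts of reads, 1 row for each Ensembl gene, taken here unchanged. STAR 2.5.3a, HTSeq 0.6.1p1, cutadapt 1.10, Bowtie2 2.2.8 and the build mm10 are named in the submitters' processing notes. Neither the strand setting nor the annotation release is given there. CPM per kb used the median transcript length in bases that the deposited table lists for each gene. Another 24 per-sample columns, with normalized values and 2 further libraries, were not used. Of 27370 genes, 881 had no counts, and no synthetase symbol stood on more than 1 row.

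In R 4.3.3, edgeR 4.0.16 fitted all 9 libraries with a term per group, TMM scaling, the filterByExpr filter and the robust quasi-likelihood test, two-sided, with Benjamini-Hochberg adjustment over 15103 genes and calls under 0.05. Each library pools 2 mice, so p-values measure the spread between pools, and pools that share mice across groups were treated as independent. Other settings were a 1 CPM filter or none, upper quartile and RLE scaling, DESeq2 1.42.0, limma-voom (limma 3.58.1), the compared groups alone, leaving out each library in turn, leaving out both libraries poor in chromosome Y reads, and a term for those libraries. The fit was tested on simulated data, where it missed many of the changes put in, so a gene not called is not shown to be unchanged. Exon overlaps, strands and an alternative exonic length came from GENCODE M21, where 33 of 37 coordinates equal those of the table. Motifs were searched in RefSeq promoters. Figures were drawn with matplotlib 3.10.9.

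The members, pathway lists and tests were chosen with earlier results of these data known. Values per library are given for the called members with the largest log2 fold changes, up to 12 in each main comparison, and for pairs of paralogs in which 1 was called or both in opposite directions. Of the other members, those shown were added for completeness. The values of 1 mitochondrial member are not reported here, though it is counted in the totals. Pathway genes named are called genes with small p in each list, plus Atf4, Asns and the scaffold genes, and not every gene under that rule is given.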

Additional observations from a re-analysis of the deposited data

How the results depend on the processing

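No synthetase called in any of the 3 comparisons changed direction under the 18 settings tried, and the mitochondrial median of steady-state RPF against FRC, close to 0, ran from -0.09 to 0.14. After depletion, cytosolic genes called higher numbered 14 to 20 over 18 alternatives. Of the 18 calls, 13 held in each alternative, and those of Farsa, Iars, Lars, Sars and Wars did not. All 3 mitochondrial calls (Ears2, Yars2 and Hars2) were lost in some. Mitochondrial genes called higher fell to 1 with no filter and to 1 without both libraries poor in chromosome Y reads. Leaving out each library gave 0 to 2 mitochondrial genes higher and 0 to 1 lower, and over all members 14 to 21 higher and 0 to 1 lower. In steady-state RPF against FRC, upper quartile scaling gave 4 members higher and 3 lower (1 cytosolic higher, 2 cytosolic lower); it shifts the median of all genes by 0.16. The compared groups alone gave 3 members lower, 2 of them cytosolic. Without both libraries poor in chromosome Y reads there were 9 lower, 7 cytosolic and 2 mitochondrial. Mitochondrial genes called lower numbered 2 with a 1 CPM filter, 3 with DESeq2 and 2 with limma-voom. A term for both libraries poor in chromosome Y reads, added after seeing the data, gave 2 cytosolic and 2 mitochondrial genes lower. Leaving out each library gave 1 to 10 members lower, 1 to 8 cytosolic and 0 to 2 mitochondrial. In depleted RPF against FRC, 13 of 15 cytosolic calls and 1 of 6 mitochondrial calls (that of Cars2) held in each alternative, and 1 mitochondrial gene was called higher with no filter. Leaving out each library gave 1 to 3 mitochondrial genes higher and 1 to 5 lower, and 1 to 5 members lower. The difference of the mitochondrial to cytosolic ratio was -0.94 with exonic length, a choice made after seeing the data. The cause of these changes was not tested. Fits that leave libraries out also have fewer of them. Low counts of mitochondrial genes such as Pars2, Mars2 and Ears2 limit their precision. No paired analysis was possible because the labels give no replicate numbers shared between groups and do not say which libraries share mice. Chromosome Y reads set apart 1 library in each of the steady-state groups, which leaves the other libraries unpaired.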
